A study of Mus musculus with 16 samples.

Results

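The genes described here are 40 genes of DNA replication and of the step from G1 into S phase, measured in sorted mouse liver cells. They were chosen by name, with no measured value in the rule, as the array probes whose gene name is on a fixed list. All 40 had a probe among the 28034 gene names of the array, and all 40 were among the 23306 genes that passed the filter on dim probes and were tested. The list holds 14 genes of the replicative helicase and its loading, 12 of the polymerases, sliding clamp and lagging strand, 4 of nucleotide supply, 3 of chromatin assembly and DNA methylation, and 7 E2F factors, G1 cyclins and the inhibitor Cdkn1a.

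The cells came from livers of c129/S3 mice that ate a standard diet or the same diet with 0.1% (w/w) DDC for 2 weeks. DDC is a compound that disturbs haem synthesis in the liver and is used to provoke growth of the bile ductules. Cells were sorted by flow cytometry on the surface antigen MIC1-1C3 (M) and on CD133, the product of Prom1, into those positive for both (M+133+) and those negative for both (M-133-). The groups were M+133+ untreated (n = 4), M+133+ DDC (n = 4), M-133- untreated (n = 2) and M-133- DDC (n = 4), which makes 14 samples on 16 arrays of 1 colour, because sample 1 of M+133+ untreated and sample 2 of M-133- untreated were each hybridised to 2 arrays. No genotype other than the strain is given for any group, and how many animals each sample pooled is not given in the sources used here, so p-values measure the spread between these samples. RNA was amplified before labelling. M-133- is a mixed sort of liver cells that lack both antigens. Whether it holds every such cell type was not measured.

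Before S phase, origins of replication are marked by the origin recognition complex (Orc1, Orc6), and Cdc6 with Cdt1 loads onto them a ring of the subunits Mcm2 to Mcm7. Cdc45 and the GINS complex (Gins1, Gins2) join the ring to form the active helicase, and polymerases alpha, delta and epsilon then copy the strands with the clamp Pcna. Many of these genes are transcribed through E2F factors, which are held back by the retinoblastoma proteins until cyclin D and cyclin E kinases release them. Adult liver cells are largely quiescent, and they enter this programme after injury.

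A level is the log2 signal of a gene's probe minus the 75th percentile of its array, so that levels compare samples for a gene and not one gene with another. Differences are log2 differences of group means ± SE from a limma fit over all tested genes, with p-values adjusted by Benjamini-Hochberg over those 23306 genes and a gene called under 0.05. Array brightness, as the 75th percentile of intensity, spanned 602.8 to 2732.2, and on each array between 60.3% and 77.3% of spots exceeded background clearly. The dimmest arrays, at 602.8 and 705.9, were both of M-133- untreated samples, whose remaining array was at 2080.8. M-133- DDC arrays were at 1418.0 to 2110.8. The part of brightness in the differences was not tested. Of the duct markers, 9 of 10 were called higher in M+133+ than in M-133- cells in each treatment; Prom1 lay between 0.81 and 2.23 in the 8 M+133+ samples and between -8.63 and -3.52 in the 6 M-133- samples. The duct list also differed with DDC: its mean was -4.34 and -3.31 in M-133- untreated and -2.30 to -1.31 in M-133- DDC samples, without overlap, and 2.83 to 3.38 against 3.25 to 4.75 in M+133+ cells. In M-133- cells 2 of the 10, Spp1 (8.78 ± 0.81, adjusted p = 9.37e-05) and Sox9 (3.33 ± 0.64, adjusted p = 0.022), were called higher after DDC, with a median of 1.54 over the list, and Spp1 was called in the interaction (-8.78 ± 1.04, adjusted p = 0.00206). Among the other marker lists the mean of the 9 endothelial markers was 4.20 and 4.36 in M-133- untreated and 0.46 to 3.10 in M-133- DDC samples, and that of the 9 stellate cell markers was 1.31 and 1.51 against 3.49 to 4.65. In M+133+ cells the endothelial mean was -1.98 to -0.17 in untreated and -3.83 to -2.04 in DDC samples, and the stellate mean was -2.86 to -1.51 against -2.97 to -0.02. M+133+ DDC sample 1 held the value of -0.02, with Dcn at 1.67 against -6.93 to -5.14 in the other DDC samples of that sort. The mean of the 9 hepatocyte markers was 1.23 in M+133+ DDC sample 2, against -2.64 to -1.25 in the other DDC samples of that sort and -2.04 to -0.82 in the untreated ones. Macrophage, B cell, T and NK cell, neutrophil and erythroid marker lists had 0 genes called for DDC in either sort. The macrophage mean still varied between samples of a group. It was -0.38 and -4.47 in M-133- untreated samples 1 and 2, and -3.41 to -0.85 in M-133- DDC samples. In M+133+ cells it was -4.21 to -3.89 untreated and -5.05 to -1.12 after DDC. The part of these shifts in the results was not tested, and in such bulk samples fewer cells of a type and less RNA per cell cannot be told apart.

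Because E2F factors are the best known regulators of these genes, their promoters are shown first. RefSeq promoters of build GRCm38.p6, from 250 bases before to 50 bases after the start, were found for 34 of the 40 genes. The E2F octamers TTTCCCGC, TTTGGCGC, TTTCGCGC and TTTGCCGC, searched on both strands, occurred in 14 of these 34 genes (41.2%), against 2.61% of 27025 genes with a promoter. Before the start alone they occurred in 8 of 34 (23.5%), against 2.16%. By role the octamers were found in 7 of 11 helicase and loading genes, 5 of 11 polymerase, clamp and lagging strand genes, 0 of 4 nucleotide supply genes, 1 of 3 chromatin genes and 1 of 5 E2F and G1 genes. The 120 bases below belong to members with an octamer before the start; capitals mark the octamers, and overlapping ones form 1 longer run. The Mcm5 window is chr8:75109302-75109421 (+ strand), the Mcm6 window chr1:128359721-128359840 (- strand) and the Rfc3 window chr5:151651209-151651328 (- strand).
Mcm5: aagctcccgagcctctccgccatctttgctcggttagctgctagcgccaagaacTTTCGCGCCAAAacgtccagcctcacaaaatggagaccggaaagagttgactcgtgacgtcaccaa
Mcm6: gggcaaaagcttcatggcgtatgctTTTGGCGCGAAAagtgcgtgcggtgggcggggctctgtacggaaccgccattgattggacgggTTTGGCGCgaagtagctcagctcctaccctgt
Rfc3: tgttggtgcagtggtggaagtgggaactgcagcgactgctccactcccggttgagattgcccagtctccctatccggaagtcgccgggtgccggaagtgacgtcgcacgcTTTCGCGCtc
Mcm5 and Mcm6 each hold an overlapping pair, in which 2 octamers on opposite strands share bases, and Mcm6 holds 1 more octamer nearer its start.

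In the other 5 members with an octamer before the start there was 1 match each before the start, shown with 8 bases on either side and the octamer in capitals. The stretches are chr11:98908005-98908028 (+ strand) for Cdc6, chr5:138172033-138172056 (- strand) for Mcm7, chr4:108579419-108579442 (+ strand) for Orc1, chrX:93632278-93632301 (- strand) for Pola1 and chr17:56304120-56304143 (+ strand) for Uhrf1.
Cdc6: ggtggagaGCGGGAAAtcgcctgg
Mcm7: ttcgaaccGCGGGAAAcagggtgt
Orc1: ggttagtgGCGCGAAAagttttct
Pola1: atcacaggGCGCCAAAtgcactcc
Uhrf1: gagtcgggTTTCGCGCgcccaggc
In Cdc6 and Mcm7 the capitals are TTTCCCGC read on the opposite strand, and in Uhrf1 and Rfc3 they are TTTCGCGC on the gene's own strand. These letters are a description of the windows. CCAAT, also on both strands, was in 20 of 34 members (58.8%) against 41.1% of all genes, and the CHR hexamers TTTGAA and TTCGAA were in 7 of 34 (20.6%) against 21.7%.

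After DDC the replication genes stood higher in M+133+ cells, with only 2 of them past the test. The difference was above 0 for 39 of 40 members, against 52.5% of all genes, with a median of 1.24 over the members and 0.06 over all genes. Tk1 and E2f8 were the members called, both higher, which is 2 of 40 against 0.24% of all genes called in either direction, 0.146% higher and 0.0944% lower. A difference at an unadjusted p under 0.05 was found for 20 members (12.5% of all genes), 20 in the higher direction (6.52%) and 0 in the lower (5.96%). For 12 members every DDC sample lay above every untreated sample (4.08% of all genes), and for 0 every DDC sample lay below (4.26%). The mean level over all 40 members was -0.67, -0.02, -0.83 and -1.31 in M+133+ untreated samples 1 to 4, and 0.65, 1.10, 0.94 and 0.73 in the M+133+ DDC samples. Untreated sample 1 is the mean of 2 arrays, which differed in absolute value by a median of 0.76 over the members and by up to 5.60. The 4 DDC samples lay above all 4 untreated ones, and untreated sample 2 was the highest of its group. Within slide 3 and slide 4, which held arrays of both groups, the members' median was 0.98 with 34 of 40 above 0 and 1.88 with 37 of 40, beside all-gene medians of 0.22 and -0.17. Slide 3 held 2 DDC and 2 untreated arrays of this sort, and slide 4 held 2 and 1. Untreated sample 1 was on slides 2 and 5 and entered neither value.

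In M-133- cells the same comparison had 29 of 40 differences above 0, against 37.5% of all genes, with a median of 1.05 over the members and -0.36 over all genes. With quantile normalization that median of all genes was 0.07, and the members' count stayed at 29 of 40. By limma's adjusted p 0 members were called, against 1.02% of all genes in either direction, 0.614% higher and 0.403% lower, and 12 members had an unadjusted p under 0.05 (12.8% of all genes), 11 of them higher (4.69%) and 1, Mcm3, lower (8.15%). For 12 members every DDC sample lay above both untreated ones (7.11% of all genes), and for Mcm3 and Orc6 every DDC sample lay below (12.7%). The mean over all members was -0.939 and -0.935 in the M-133- untreated samples and -0.05, 0.13, -0.05 and -0.57 in the M-133- DDC samples. The closeness of the untreated means is not that of single genes. Untreated sample 2 is the mean of 2 arrays, which differed in absolute value by a median of 1.13 over the members and by up to 4.90. DDC sample 4 was the lowest of its group and still above both untreated samples. Within slide 1 and slide 2 the members' median was 1.34 with 30 of 40 above 0 and 0.73 with 29 of 40, beside all-gene medians of -0.68 and 0.15. Slide 1 held 1 DDC and 1 untreated array of this sort, and slide 2 held 2 and 1. DDC sample 4 was on slide 5, which held no untreated array of this sort, and entered neither value.

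**Figure D1:**
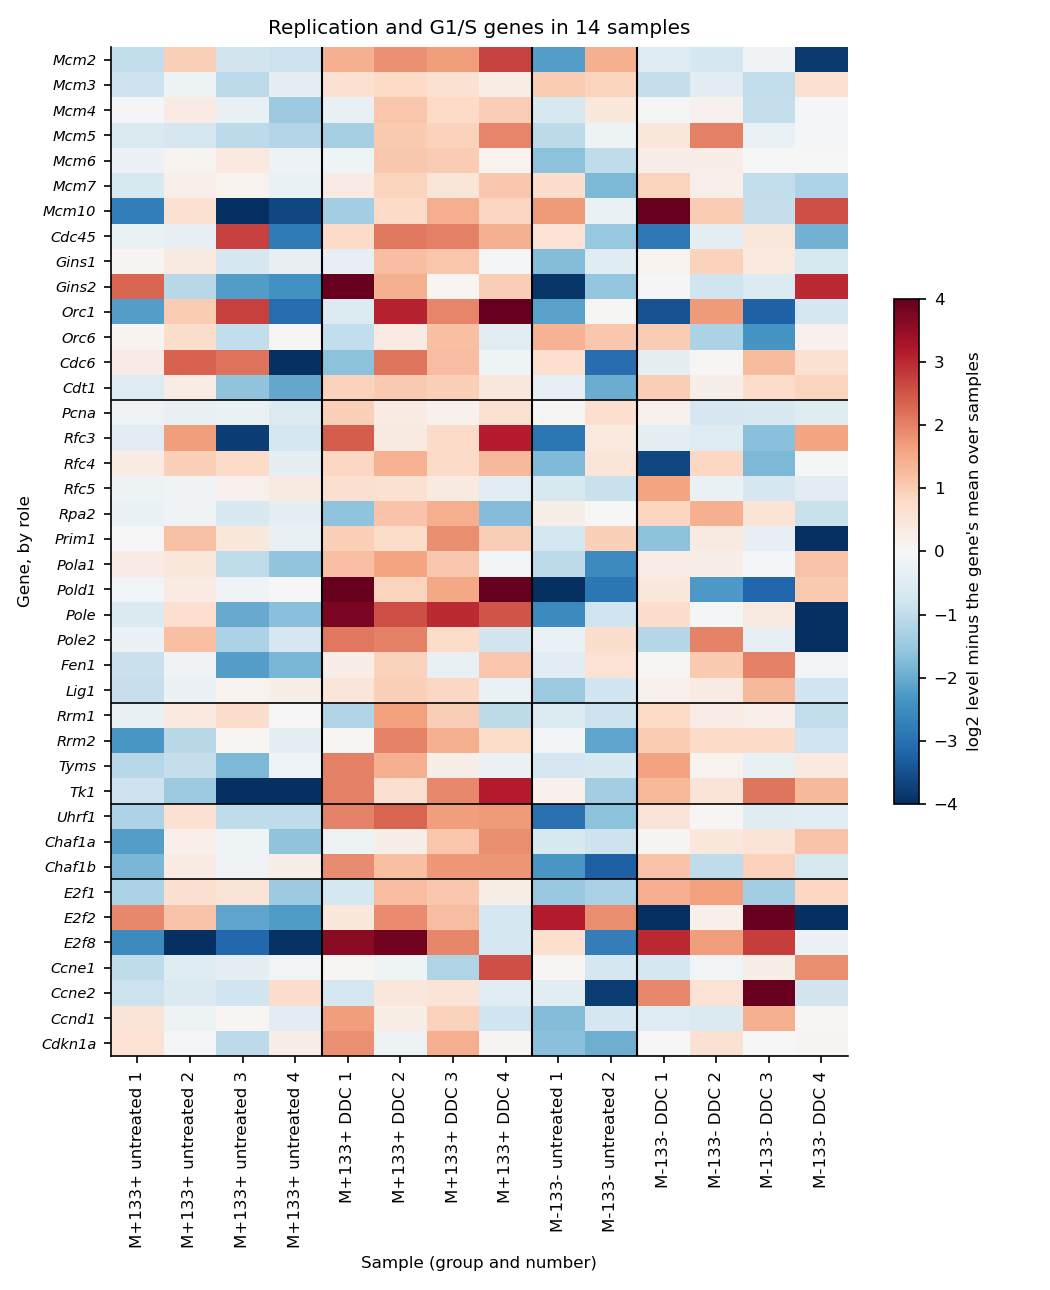
Heat map of the log2 level of the 40 genes in 14 samples, each gene centred on its own mean over samples (colour, log2 units, limited to 4 in either direction), with genes in rows by role and samples in columns by group. The M+133+ DDC columns are mostly red, the difference being above 0 for 39 of 40 genes, while M-133- DDC columns are mixed, with 29 of 40 above 0.

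The helicase and its loading factors all had differences above 0 in M+133+ cells, 14 of 14 with a median of 1.36, and none was called. In M-133- cells 8 of 14 were above 0, with a median of 0.63, and again none was called. Mcm2, a ring subunit, had levels of -2.30, -0.37, -2.05 and -2.16 in M+133+ untreated samples 1 to 4 and 0.11, 0.53, 0.35 and 1.39 in M+133+ DDC samples 1 to 4. Its M+133+ groups did not overlap, with untreated sample 2 near the DDC samples. The difference was 2.31 ± 0.92 (adjusted p = 0.311). Among M-133- cells Mcm2 was at -3.52 and 0.10 in the untreated and -1.81, -2.01, -1.45 and -5.14 in the DDC samples. The untreated values enclosed 3 of the DDC values, and DDC sample 4 lay below them all, for a difference of -0.89 ± 1.13 (adjusted p = 0.827). The untreated value of 0.10 is the mean of 2 arrays that read -1.65 and 1.84.

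Mcm3, another ring subunit, had differences of opposite sign in the sorts. It was at 2.64, 3.26, 2.42 and 3.07 in M+133+ untreated and 4.09, 4.27, 4.07 and 3.78 in M+133+ DDC samples, so that all DDC samples were higher (1.20 ± 0.36, adjusted p = 0.186). In M-133- cells it was at 4.50 and 4.37 in untreated and 2.53, 3.03, 2.49 and 4.09 in DDC samples, so that all DDC samples were lower (-1.40 ± 0.43, adjusted p = 0.164). The difference between these responses was 2.60 ± 0.56 (adjusted p = 0.0874), with adjusted p = 0.00611 when the gene's 2 probes were averaged and 0.026 without M-133- DDC sample 4. The probe not used had the same directions, with differences of 3.27 in M+133+ and -3.36 in M-133- cells. Averaged probes also took Mcm3 past the threshold for DDC in M+133+ (2.24, adjusted p = 0.0304) and in M-133- cells (-2.38, adjusted p = 0.0304), and so did leaving out M-133- DDC sample 4 in M-133- cells (-1.75, adjusted p = 0.043).

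Mcm6 had levels of 3.34, 3.70, 3.98 and 3.36 in M+133+ untreated and 3.41, 4.67, 4.59 and 3.71 in M+133+ DDC samples, which overlapped (0.50 ± 0.33, adjusted p = 0.571). Among M-133- cells it was at 1.94 and 2.57 untreated and 3.81, 3.84, 3.59 and 3.60 after DDC, without overlap (1.46 ± 0.40, adjusted p = 0.112). That difference passed with only the later array of the repeated samples (1.73, adjusted p = 0.0488). Mcm5 was at 0.38, 0.27, -0.12 and -0.22 in M+133+ untreated and -0.39, 2.00, 1.85 and 2.89 in M+133+ DDC samples, where sample 1 lay below every untreated sample and the other 3 above (1.51 ± 0.68, adjusted p = 0.377). In M-133- cells Mcm5 was at -0.11 and 0.75 untreated and 1.38, 2.95, 0.66 and 0.89 after DDC, with overlap (1.15 ± 0.83, adjusted p = 0.643).

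Cdc6, which loads the ring, had the widest spread of the loading genes named here. It was at -3.01, -0.98, -1.17 and -8.95 in M+133+ untreated samples, the last not above background, and at -4.98, -1.21, -2.11 and -3.53 in M+133+ DDC samples. Among M-133- cells it was at -2.68 and -6.39 untreated and -3.74, -3.29, -2.09 and -2.73 after DDC, and the groups overlapped in both sorts. The differences were 0.57 ± 1.49 (adjusted p = 0.926) and 1.57 ± 1.83 (adjusted p = 0.807). The Cdc6 probe not used, a dimmer one, gave 1.30 in M+133+ and -0.96 in M-133- cells. Gins2, a subunit of GINS, was at -4.71 and -2.37 in M-133- untreated and -0.89, -1.64, -1.37 and 2.14 in M-133- DDC samples, without overlap (3.10 ± 1.52, adjusted p = 0.42). Its M+133+ levels were 1.51, -1.95, -3.06 and -3.25 untreated and 3.97, 0.58, -0.76 and 0.14 after DDC, where untreated sample 1 exceeded 3 of the DDC samples (2.67 ± 1.24, adjusted p = 0.394). Of the remaining helicase and loading genes, the difference in M+133+ cells ran from 0.07 for Orc6 to 2.92 for Mcm10, and in M-133- cells from -1.86 for Orc6 to 1.87 for Cdt1. Orc1 was not above background in 5 of 14 samples.

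The polymerase, clamp and lagging strand genes were above 0 after DDC in 12 of 12 cases in M+133+ cells (median 1.05) and in 8 of 12 in M-133- cells (median 0.57), and none was called. Pole, the catalytic subunit of polymerase epsilon, was at -3.03, -1.77, -4.45 and -4.12 in M+133+ untreated and 1.33, 0.15, 0.56 and 0.06 in M+133+ DDC samples. The groups did not overlap, and the difference of 3.87 ± 1.21 (adjusted p = 0.21) passed the threshold without M-133- DDC sample 4, at adjusted p = 0.0422. In M-133- cells Pole was at -4.99 and -3.24 untreated and -1.73, -2.48, -2.09 and -8.31 after DDC, where sample 4 was not above background (0.46 ± 1.48, adjusted p = 0.937). Pold1, the catalytic subunit of polymerase delta, was at -0.77, -0.36, -0.80 and -0.64 in M+133+ untreated and 3.34, 0.22, 0.88 and 4.41 in M+133+ DDC samples. All 4 DDC samples were higher, samples 1 and 4 by far the most, and the difference was 2.85 ± 1.04 (adjusted p = 0.266). Among M-133- cells Pold1 was at -5.40 and -3.55 untreated and -0.25, -2.97, -3.84 and 0.37 after DDC, with DDC sample 3 below the higher untreated sample (2.80 ± 1.28, adjusted p = 0.372).

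Pola1, the catalytic subunit of polymerase alpha, was at -0.94 and -2.43 in M-133- untreated and 0.40, 0.33, 0.07 and 1.26 in M-133- DDC samples, without overlap (2.20 ± 0.76, adjusted p = 0.217). Its M+133+ levels were 0.45, 0.55, -0.91 and -1.46 untreated and 1.30, 1.69, 1.19 and -0.02 after DDC, where DDC sample 4 lay among the untreated ones (1.38 ± 0.62, adjusted p = 0.379). The clamp Pcna was at 3.19, 3.03, 3.04 and 2.78 in M+133+ untreated and 4.27, 3.65, 3.49 and 3.92 in M+133+ DDC samples, a small difference without overlap (0.82 ± 0.30, adjusted p = 0.267). In M-133- cells Pcna was at 3.37 and 3.99 untreated and 3.49, 2.64, 2.71 and 2.82 after DDC, the opposite sign (-0.77 ± 0.37, adjusted p = 0.406). The M-133- groups overlapped; the untreated sample 2 value is the mean of 2 arrays that read 2.66 and 5.32, and the difference between the responses was 1.59 ± 0.48 (adjusted p = 0.239). For the other 8 genes of this role the differences ran from 0.16 for Rpa2 to 2.48 for Rfc3 in M+133+ cells, and from -1.63 for Prim1 to 1.39 for Lig1 in M-133- cells.

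**Figure D2:**
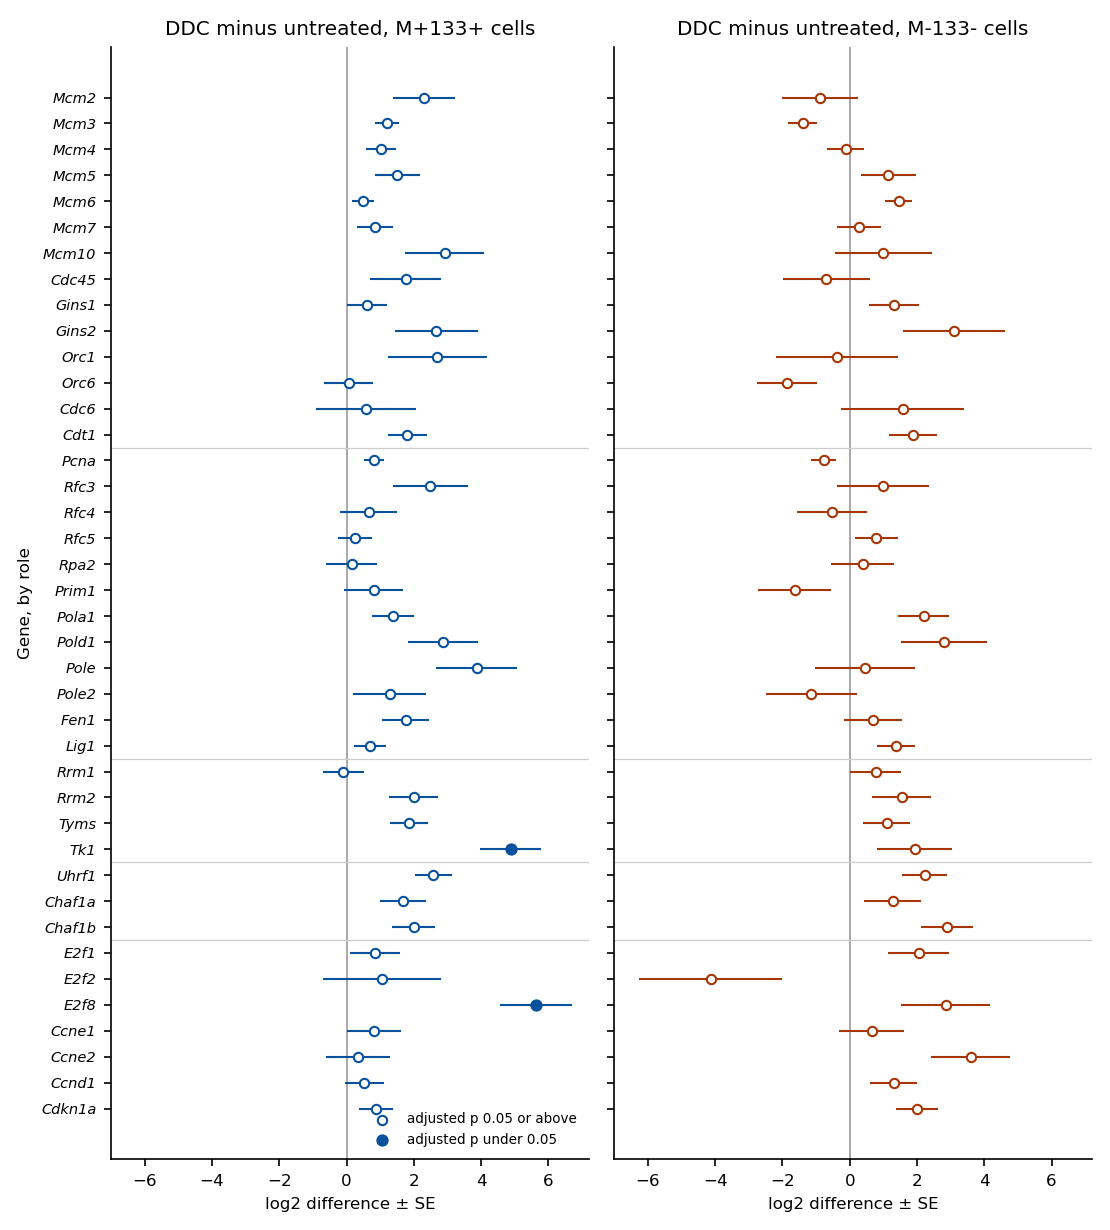
Log2 difference between DDC and untreated samples ± SE for each of the 40 genes, in M+133+ cells (left, 4 against 4 samples) and M-133- cells (right, 4 against 2), with genes by role; filled points have an adjusted p under 0.05. Tk1 (4.88) and E2f8 (5.63) are the filled points, and Mcm3 is at 1.20 on the left and -1.40 on the right.

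Nucleotide supply genes make the building blocks for DNA. Tk1, thymidine kinase of dividing cells, rose after DDC in M+133+ cells, from -0.50, -1.12, -3.93 and -4.97 in the untreated to 2.35, 0.97, 2.24 and 3.46 in the DDC samples. The groups did not overlap, and the difference was 4.88 ± 0.91 (adjusted p = 0.0409), 29.5-fold. Within slides 3 and 4 it was 4.18 and 7.82, the latter against 1 untreated array, that of sample 4, the lowest for Tk1. A fixed slide block gave 5.64 (adjusted p = 0.109). The Tk1 call was lost, at adjusted p of 0.0533 to 0.138, on leaving out any 1 of M+133+ untreated samples 3 and 4, M+133+ DDC samples 1, 3 and 4, either M-133- untreated sample, or M-133- DDC samples 1 and 2. Among M-133- cells Tk1 was at 0.49 and -1.09 untreated and 1.66, 0.83, 2.45 and 1.61 after DDC, without overlap (1.93 ± 1.11, adjusted p = 0.518). The difference between the responses of the sorts was 2.95 ± 1.44 (adjusted p = 0.519).

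Rrm2, the regulated subunit of ribonucleotide reductase, was at -3.15, -1.93, -0.75 and -1.19 in M+133+ untreated and -0.73, 1.18, 0.59 and -0.09 in M+133+ DDC samples, without overlap (1.99 ± 0.72, adjusted p = 0.265). In M-133- cells it was at -0.94 and -2.92 untreated and 0.21, -0.06, -0.07 and -1.62 after DDC, where DDC sample 4 lay between the untreated samples (1.54 ± 0.88, adjusted p = 0.518). Its partner Rrm1 was the single member with a difference under 0 in M+133+ cells, -0.09 ± 0.62 (adjusted p = 0.974). Tyms, thymidylate synthase, was at 0.84, 0.99, 0.15 and 1.80 in M+133+ untreated and 3.95, 3.36, 2.18 and 1.71 in M+133+ DDC samples. Untreated sample 4 exceeded DDC sample 4, and the difference was 1.86 ± 0.56 (adjusted p = 0.199). Among M-133- cells Tyms was at 1.29 and 1.33 untreated and 3.55, 2.07, 1.66 and 2.32 after DDC, all DDC samples being higher (1.09 ± 0.69, adjusted p = 0.571). The brighter Tyms probe not used gave differences of 1.11 in M+133+ and 1.21 in M-133- cells. The dimmer gave -0.63 and -2.25.

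The 3 chromatin genes had differences above 0 in both sorts, with medians of 1.99 in M+133+ and 2.23 in M-133- cells, and none was called. Uhrf1 brings the maintenance DNA methyltransferase to newly copied DNA. It was at -0.74, 1.10, -0.55 and -0.52 in M+133+ untreated and 2.45, 2.80, 2.15 and 2.20 in M+133+ DDC samples, without overlap (2.58 ± 0.54, adjusted p = 0.0608). Leaving out M+133+ untreated sample 2, the highest of its group, gave 3.00 with adjusted p = 0.0347. In M-133- cells Uhrf1 was at -2.51 and -1.16 untreated and 1.00, 0.53, 0.02 and 0.02 after DDC, also without overlap (2.23 ± 0.66, adjusted p = 0.143).

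Chaf1b, a subunit of the assembly factor that places histones on new DNA, was at -1.93 and -2.88 in M-133- untreated and 1.51, -0.62, 1.30 and -0.26 in M-133- DDC samples (2.89 ± 0.78, adjusted p = 0.105). Its M+133+ levels were -1.44, 0.70, 0.26 and 0.64 untreated and 2.27, 1.59, 2.12 and 2.15 after DDC, a difference of 1.99 ± 0.63 (adjusted p = 0.214), and the groups did not overlap in either sort. Its partner Chaf1a had differences of 1.69 ± 0.68 and 1.27 ± 0.83. Of all 40 genes, Uhrf1 had the highest correlation with the mean of the other 39 over the 14 samples, Pearson's r = 0.905, and 0.604 after each group's mean was removed. It was followed by Cdt1 (0.772) and Pole (0.764), and Orc6 was lowest (-0.153). These values describe samples that share groups and arrays, and no p is given.

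**Figure D3:**
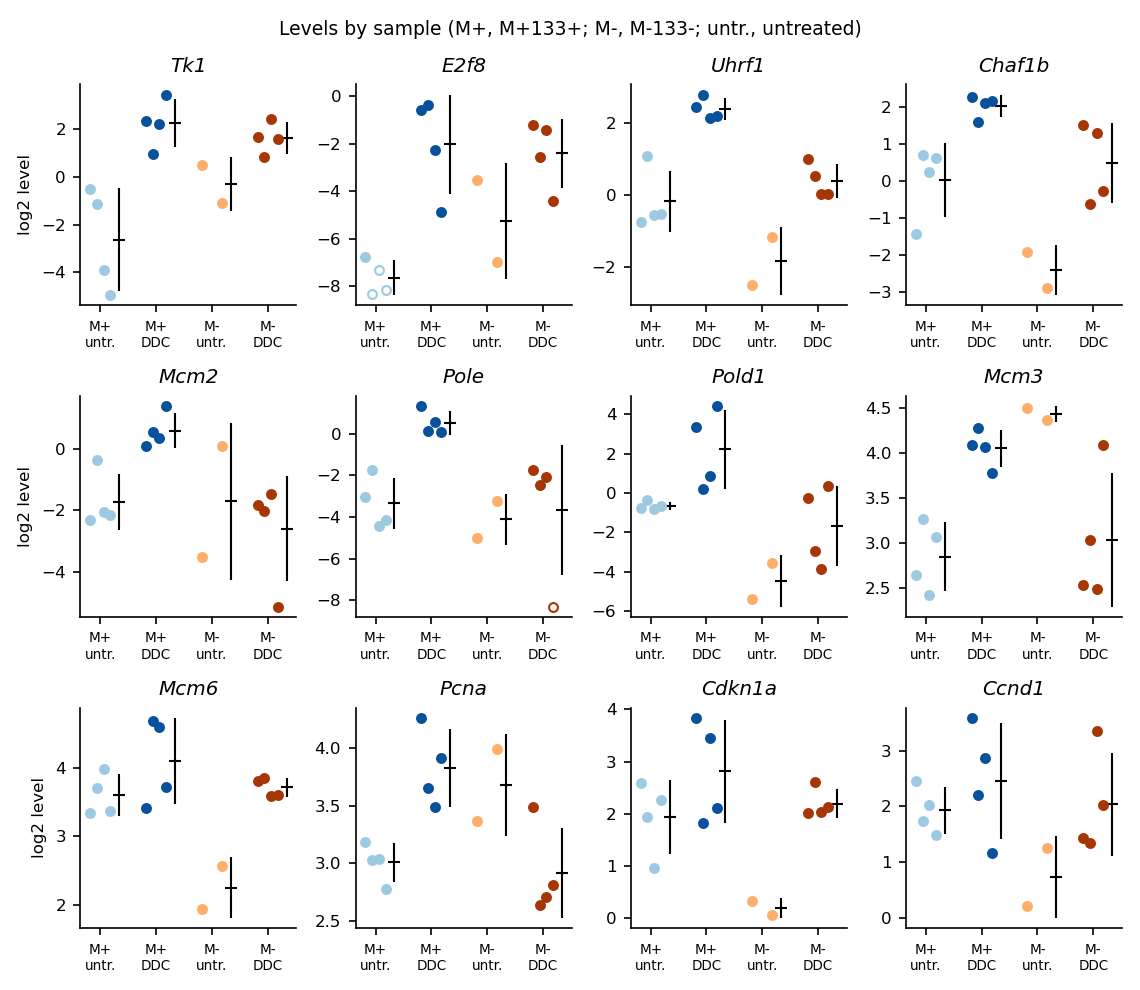
Log2 level in each sample for 12 genes, by group (points; open where not well above background on most arrays of the sample), with mean ± SD as black bars (n = 4, 4, 2 and 4) and an axis of its own for each gene. Tk1, E2f8, Uhrf1, Chaf1b, Mcm2, Pole, Pold1, Mcm3 and Pcna separate the M+133+ groups without overlap, and Mcm3 lies lower in M-133- DDC than in M-133- untreated samples.

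E2f8, a repressor of the E2F family that is itself made in S phase, rose in M+133+ cells, from -6.75, -8.32, -7.33 and -8.16 in the untreated to -0.58, -0.35, -2.26 and -4.88 in the DDC samples. Untreated samples 2 to 4 were not above background and sample 1 was so on 1 of its 2 arrays, so the difference of 5.63 ± 1.08 (adjusted p = 0.0467), 49.4-fold, rests on dim values in the untreated group. Within slides 3 and 4 it was 7.37 and 4.59, the latter against 1 untreated array, and a fixed slide block gave 6.30 (adjusted p = 0.0539). It was 2.75 (adjusted p = 0.145) with the normexp background correction. The E2f8 call was also lost, at adjusted p of 0.0519 to 0.156, on leaving out any 1 of the 4 M+133+ untreated samples, M+133+ DDC samples 1 to 3, M-133- untreated sample 1 or M-133- DDC samples 1 to 3. Among M-133- cells E2f8 was at -3.53 and -6.97 untreated and -1.23, -2.54, -1.43 and -4.42 after DDC, with overlap (2.85 ± 1.32, adjusted p = 0.384).

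E2f1, an activating factor of the family, was at -0.55, 1.36, 1.24 and -0.75 in M+133+ untreated and 0.02, 1.94, 1.80 and 0.94 in M+133+ DDC samples, with overlap (0.85 ± 0.74, adjusted p = 0.707). In M-133- cells it was at -0.82 and -0.59 untreated and 2.15, 2.36, -0.69 and 1.54 after DDC, where DDC sample 3 lay between the untreated samples (2.05 ± 0.91, adjusted p = 0.358). The E2f1 probe not used gave differences of 0.67 in M+133+ and 0.05 in M-133- cells. The value of -0.55 in M+133+ untreated sample 1 is the mean of 2 arrays that read -2.77 and 1.67. Ccne1, cyclin E1, was at -2.72, -2.20, -2.07 and -1.82 untreated and -1.65, -1.88, -2.91 and 0.87 after DDC in M+133+ cells, where DDC sample 4 was high and the other 3 lay about the untreated values (0.81 ± 0.79, adjusted p = 0.749). Among M-133- cells Ccne1 was at -1.68 and -2.40 untreated and -2.40, -1.83, -1.48 and 0.15 after DDC, with M-133- DDC sample 4 highest (0.65 ± 0.97, adjusted p = 0.86). The Ccne1 probe not used, a dimmer one, gave differences of 2.345 in M+133+ and 0.475 in M-133- cells.

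Ccnd1, cyclin D1, was at 2.46, 1.73, 2.02 and 1.49 in M+133+ untreated and 3.60, 2.21, 2.86 and 1.15 in M+133+ DDC samples, which overlapped (0.53 ± 0.57, adjusted p = 0.78). In M-133- cells it was at 0.21 and 1.26 untreated and 1.43, 1.35, 3.35 and 2.02 after DDC, all DDC samples being higher (1.31 ± 0.70, adjusted p = 0.474). Cdkn1a, the inhibitor p21, was at 0.34 and 0.06 in M-133- untreated and 2.02, 2.61, 2.03 and 2.12 in M-133- DDC samples, without overlap (2.00 ± 0.61, adjusted p = 0.159). Its M+133+ levels were 2.59, 1.94, 0.96 and 2.26 untreated and 3.84, 1.82, 3.46 and 2.12 after DDC, with overlap (0.87 ± 0.50, adjusted p = 0.508). Ccne2 had the highest difference of all members in M-133- cells, 3.59 ± 1.18 (adjusted p = 0.188), and E2f2 the lowest, -4.13 ± 2.14 (adjusted p = 0.452), the latter with 2 of 4 DDC samples not above background. In M+133+ cells both overlapped, at 0.34 ± 0.96 and 1.05 ± 1.74.

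In untreated liver the sorts differed in both directions. Of 40 members 24 were above 0 in M+133+ relative to M-133- cells, against 48% of all genes, with a median of 0.35 against -0.07. Calls were made for 2 members against 8.8% of all genes: Mcm6 was higher (3.63% of all genes) and Mcm3 lower (5.16%) in M+133+ cells. Without adjustment, 7 members had a p under 0.05 (19.5%), 5 higher (8.18%) and 2 lower (11.3%). Mcm6 differed by 1.34 ± 0.40 (adjusted p = 0.0497) and Mcm3 by -1.59 ± 0.43 (adjusted p = 0.0338), and neither gene's samples overlapped between the sorts. Within slide 2 and slide 4, which each held 1 array of either group, the members' median was -0.10 with 20 of 40 above 0, and -0.66 with 17 of 40, beside all-gene medians of 0.09 and -0.32. Both M-133- arrays were of untreated sample 2, so these values share a sample, and M-133- untreated sample 1 entered neither.

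With slide as a fixed block both were lost, at -2.15 for Mcm3 (adjusted p = 0.0558) and 1.08 for Mcm6 (adjusted p = 0.458). The Mcm3 call was lost, at adjusted p of 0.0528 to 0.202, on leaving out any 1 of M+133+ untreated samples 1, 3 and 4 or either M-133- untreated sample. The Mcm6 call was lost, at 0.0505 to 0.373, for every sample left out except M+133+ DDC samples 1 and 2. Among members not called, Pold1 (3.83 ± 1.28, adjusted p = 0.0836) and Chaf1b (2.44 ± 0.78, adjusted p = 0.0677) were the furthest above 0 and Mcm10 (-3.19 ± 1.44, adjusted p = 0.235) the furthest below. Chaf1b passed the threshold without M+133+ untreated sample 1 (2.94, adjusted p = 0.0313). Samples did not overlap for 8 members higher (15.8% of all genes) and 4 lower (17.9%) in M+133+ cells.

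After DDC the sort difference was above 0 for 34 of 40 members, against 60.2% of all genes, with a median of 0.62 against 0.31. With quantile normalization the count was 31 of 40 and the medians 0.71 and -0.05. Calls were made for 4 members, all higher in M+133+ cells, 4 of 40 against 12.9% of all genes called, 6.44% higher and 6.48% lower. Without adjustment, 11 members had a p under 0.05 (25.8%), 11 higher (14.4%) and 0 lower (11.4%). For 7 members every M+133+ DDC sample lay above every M-133- DDC sample (7.66% of all genes), and for 0 below (7.05%). No slide held DDC samples of both sorts, so slide and sort cannot be told apart within slides here.

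The called genes were Pole, with a difference of 4.18 ± 1.21 (adjusted p = 0.0333) (18.1-fold), Pold1, 3.89 ± 1.04 (adjusted p = 0.0222) (14.8-fold), Mcm2, 3.20 ± 0.92 (adjusted p = 0.0326) (9.17-fold), and Uhrf1, 2.01 ± 0.54 (adjusted p = 0.0219) (4.03-fold). Their samples did not overlap between the sorts except for Pold1, where M-133- DDC sample 4 exceeded M+133+ DDC sample 2. With slide as a fixed block all 4 calls were lost: the differences were 5.20 for Pole (adjusted p = 0.164), 2.45 for Pold1 (0.716), 2.17 for Mcm2 (0.649) and 1.07 for Uhrf1 (0.814). With slide as a random block all 4 were kept, at adjusted p of 0.0266 to 0.0378. M-133- DDC sample 4 was the lowest for Mcm2 and Pole; without it the differences were 2.35 (adjusted p = 0.0844) and 2.63 (adjusted p = 0.0391). Mcm2 and Pole were also lost without any 1 of the 4 M+133+ DDC samples, at adjusted p of 0.0503 to 0.0878 and 0.0551 to 0.0833. Pold1 was lost without M+133+ DDC sample 1 or 4 or M-133- DDC sample 2 or 3 (0.059 to 0.0754), and Uhrf1 without M+133+ DDC sample 2 or M-133- DDC sample 4 (0.0585 and 0.0527).

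The members next by p-value in that comparison were Pcna (0.92 ± 0.30, adjusted p = 0.0592), Prim1, the primase subunit (2.66 ± 0.88, adjusted p = 0.0621), and Mcm3 (1.02 ± 0.36, adjusted p = 0.0765). With 1 M-133- DDC sample left out, Pcna passed without sample 1 (1.11, adjusted p = 0.0311), Prim1 without sample 2 or 3 (0.024 and 0.0485), Mcm3 without sample 4 (1.37, adjusted p = 0.011), and Orc1 and Rfc4 without sample 2 (0.0476 and 0.0326). Tk1 and E2f8, called for DDC in M+133+ cells, differed between the sorts after DDC by 0.62 ± 0.91 and 0.39 ± 1.08 and were not called.

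**Figure D4:**
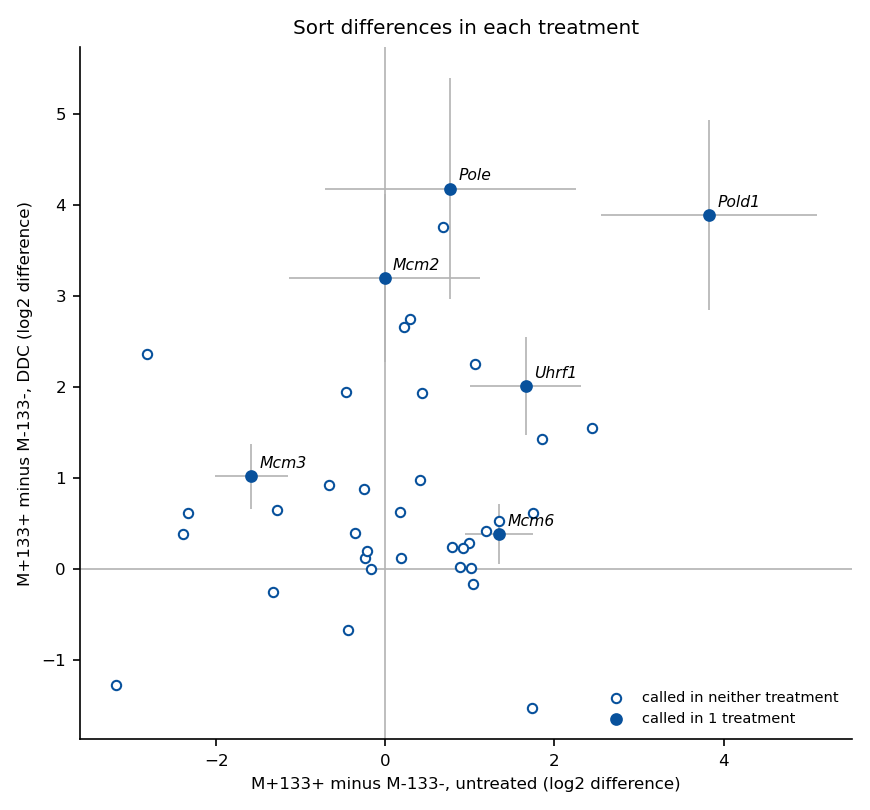
Log2 difference between M+133+ and M-133- cells for each of the 40 genes, in untreated liver (horizontal, 4 against 2 samples) and after DDC (vertical, 4 against 4); the 6 genes called in 1 of the treatments are filled, named and drawn with their SE. Most points lie above the horizontal line (34 of 40), Mcm3 is below 0 on the horizontal and above 0 on the vertical axis, and Pold1 is high on both.

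The interaction compares the DDC response in M+133+ with that in M-133- cells. By limma's adjusted p 0 members were called, against 0.257% of all genes, 0.0601% higher and 0.197% lower. Without adjustment, 4 had a p under 0.05 (9.99%), of which Mcm3, Pcna and Mcm2, 3 members, were higher (6.28%) and 1, Ccne2, lower (3.71%). The median was 0.43 over the members and 0.38 over all genes, and 25 of 40 were above 0, against 60.3% of all genes. Mcm3 was the one nearest the threshold. E2f2 had a value of 5.18 ± 2.76 (adjusted p = 0.567), which rests on M-133- DDC samples 1 and 4, at -8.46 and -8.45 and not above background. Ccne2 had the largest negative value, -3.25 ± 1.52 (adjusted p = 0.498), with 1 of 2 arrays of M-133- untreated sample 2 above background.

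Among genes of the same pathway that are not members, 39 other replication genes had 30 differences above 0 after DDC in M+133+ cells (median 0.90) and 22 in M-133- cells (median 0.52), with 0 called in either. Between the sorts after DDC, Pold2, the second subunit of polymerase delta (3.86 ± 1.11, adjusted p = 0.0316), and Hells, a chromatin remodeller (2.50 ± 0.76, adjusted p = 0.0423), were higher in M+133+ cells. The small polymerase epsilon subunits Pole4 (-1.77 ± 0.48, adjusted p = 0.0235) and Pole3 (-1.35 ± 0.35, adjusted p = 0.0187) were lower. Pole and Pole3 thus differed in sign between the sorts. Of 24 other G1/S regulators tested, Cdkn2b, an inhibitor of the cyclin D kinases (6.63 ± 1.71, adjusted p = 0.0178; 1 of 4 M-133- DDC samples above background), and Rbl1, a retinoblastoma family member (3.03 ± 0.88, adjusted p = 0.0346), were higher and Cdkn1b, the inhibitor p27 (-1.78 ± 0.50, adjusted p = 0.0296), lower in M+133+ cells after DDC. None of the 24 was called for DDC in either sort.

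Leaving out 1 sample ended each of these calls in at least 2 cases, with adjusted p up to 0.108: Pold2 without M+133+ DDC sample 1 or 4 or M-133- DDC sample 1 or 3, and Hells without 9 of 14 samples. Pole3 and Pole4 were lost without M+133+ DDC sample 4 or M-133- DDC sample 1. Cdkn2b was lost without M+133+ DDC sample 1 or 3 or M-133- DDC sample 1. Rbl1 was lost without M+133+ DDC samples 1, 2 or 3 or M-133- DDC samples 1 or 4, where the last gave 1.99, and Cdkn1b without M+133+ DDC samples 3 or 4 or M-133- DDC samples 1, 2 or 4.

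Because Cdkn1a is a target of p53, 15 other p53 targets were set beside it. Their medians were 0.02 for DDC in M+133+ and 0.16 in M-133- cells, and 1 was called, Tnfrsf10b, which was lower after DDC in M-133- cells (-3.55 ± 0.75, adjusted p = 0.0378). Gadd45a was higher in M+133+ than in M-133- cells, by 1.83 ± 0.49 (adjusted p = 0.0303) untreated and 1.29 ± 0.40 (adjusted p = 0.0464) after DDC. The Gadd45a call after DDC was lost for 12 of 14 samples left out, that in untreated liver for 5, and the Tnfrsf10b call for 9.

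Genes of mitosis, which follow S phase, were further apart than the replication genes between treatments. All 27 had a difference above 0 in each sort, with medians of 2.97 in M+133+ and 3.76 in M-133- cells. In M+133+ cells 3 were called, the kinase gene Aurkb (5.96 ± 1.08, adjusted p = 0.0384; 2 of 4 untreated samples above background), the cyclin gene Ccna2 (4.08 ± 0.78, adjusted p = 0.0454) and Mki67 (2.13 ± 0.39, adjusted p = 0.0385). Among M-133- cells 4 were called, the kinase genes Nek2 (6.69 ± 1.27, adjusted p = 0.0212) and Cdk1 (4.03 ± 0.83, adjusted p = 0.0316), Birc5, encoding survivin (4.03 ± 0.74, adjusted p = 0.0166), and the kinesin gene Kif20a (3.77 ± 0.70, adjusted p = 0.0184). Their mean level was -2.67, -0.57, -2.01 and -3.08 in M+133+ untreated and 0.99, 1.29, 0.61 and 1.12 in M+133+ DDC samples. It was -2.05 and -3.29 in M-133- untreated and 0.98, 0.69, 0.94 and 0.02 in M-133- DDC samples. M+133+ untreated sample 2 was the highest untreated sample for the mitosis genes and for the replication genes, and M-133- DDC sample 4 the lowest DDC sample for both.

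These calls too depended on single samples. In M+133+ cells Aurkb was lost for 7 of 14 samples left out, Ccna2 for 12 and Mki67 for 8, at adjusted p of 0.0507 to 0.146. In M-133- cells, where there were 2 untreated samples, Nek2 was lost without untreated sample 1 (5.50, adjusted p = 0.21), Birc5 without untreated sample 2 (2.50, adjusted p = 0.149), Kif20a without either, and Cdk1 without either or without DDC sample 1 or 2.

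**Figure D5:**
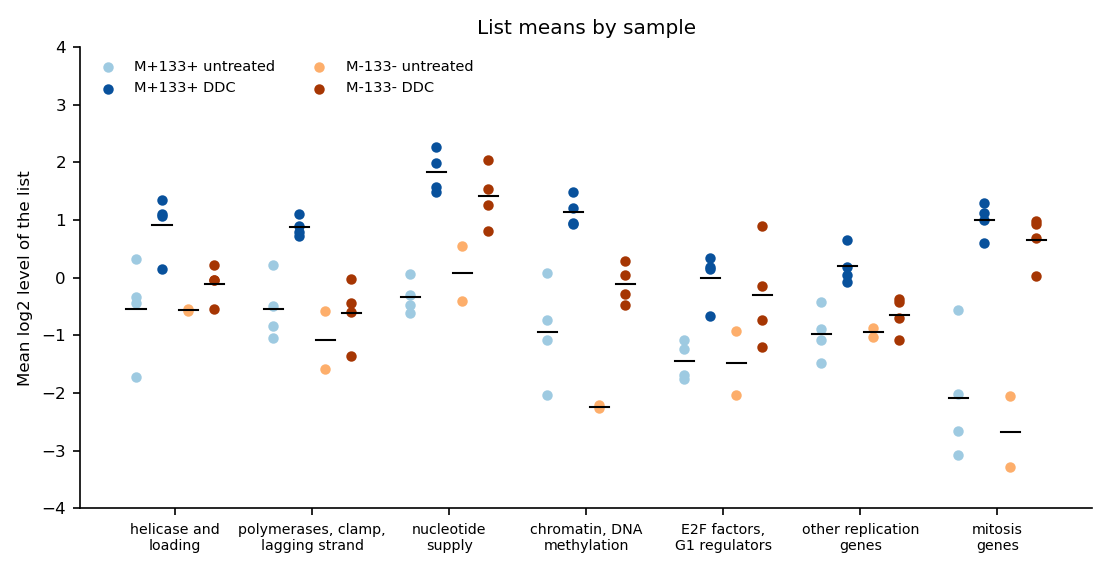
Mean log2 level per sample of the 5 roles of the replication genes, of 39 other replication genes and of 27 mitosis genes (points, coloured by group; black lines are group means; n = 4, 4, 2 and 4). The M+133+ DDC samples lie above the M+133+ untreated samples for the mitosis genes, 0.61 to 1.29 against -3.08 to -0.57, and the M-133- DDC samples above both M-133- untreated ones.

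In the authors' deposited table, which gives signed folds and false discovery rates of its own, 39 of the 40 members had a positive fold for DDC in M+133+ and 30 of 40 for DDC in M-133- cells. At a false discovery rate under 5% the authors' deposited table held 2 members for DDC in M+133+ cells, Pole and E2f8, with signed folds of 16.6 and 42.5, against 0.394% of all 38565 probes. Tk1 stood there at a fold of 24.7 with a rate of 6.91%. For DDC in M-133- cells the authors' deposited table held 0 members at that rate, against 0.176% of probes. For the sorts after DDC the authors' deposited table held 2 members under 5%, Mcm2 (4.12%) and Uhrf1 (2.41%), against 7.93% of probes; Pole stood at 9.29% and Pold1 at 7.89%. For the untreated sorts the authors' deposited table held 3 members, counting each gene by its first listed spot, against 15.6% of probes. They were Pold1 (0.81%), Cdkn1a (2.19% to 2.58% over its repeat spots) and Mcm6 (3.23%), and Mcm3 stood at 16.4%. Ccnd1 stood at 5% at its first listed spot and at 3.23% to 13.1% over its repeat spots, so some of its spots were under 5%. The calls of the limma fit and of the authors' deposited table thus differ for Pole, Pold1, Mcm3, Cdkn1a and Tk1, and at some of its spots for Ccnd1.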

How the data were processed

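Each array file holds 1-colour Agilent scanner intensity values, background-corrected by the Feature Extraction software, per the file headers. The submitters' processing notes name limma, with no version. The authors' deposited table holds signed fold changes and false discovery rates (score values here), used only where named; how the authors scaled the arrays for it is not given in the sources used here.

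Levels were log2 of the processed signal minus each array's 75th percentile, with repeat spots and then repeat arrays averaged. A gene entered with its brightest probe, provided that for some group the probe was well above background in 0.5 or more of its samples. Other probes that passed the filter did not always share its sign. For DDC in M+133+ cells a dimmer probe of Mcm4 gave -1.00 and a dimmer probe of Tyms -0.63. By name 37 members matched directly, and Cdc45, Orc1 and Orc6 by accession. All 14 samples were fitted in limma 3.58.1 (R 4.3.3) with lmFit and eBayes with an intensity trend, with Benjamini-Hochberg adjustment. The number of samples limits the precision. The fit was tested on simulated data.

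The members and lists were chosen with earlier results of these data known. Named are members called in any comparison, for each DDC comparison the 6 with the largest difference among those without overlap, and 12 set members; in other lists, up to 4 called genes per comparison. Other values outside this rule (range ends, genes passing in an alternative) were chosen after their values were seen. Alternatives were another background correction, quantile normalization, no probe filter, averaged probes, no intensity trend, only the groups compared, slide and replicate blocks, single repeat arrays and leaving out each sample. Sample numbers are those of the sample descriptions, and the titles of some samples carry other numbers. Whether same-numbered samples came from the same animals is not given in the sources used here. Correlations of same-numbered deviations from group means lay between -0.153 and 0.113. With so few samples per group these values cannot decide it. A called gene of the other lists is not reported here.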

Additional observations from a re-analysis of the deposited data

Results flagged for a closer look

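Of 138 sets of 4 samples, each a group's levels of 1 member or 1 list mean, 5 held a sample far from the others; chance gives this in about 1 in 20 groups. Mcm2 in M+133+ untreated sample 2 was at -0.37, against -2.30 to -2.05 in the others, and Uhrf1 in the same sample was at 1.10, against -0.74 to -0.52. In M-133- DDC sample 4, Mcm2 was at -5.14, against -2.01 to -1.45 in the others, Rrm2 was at -1.62, against -0.07 to 0.21, and Pole was at -8.31, against -2.48 to -1.73, and was not well above background there. The 5 values thus came from a pair of samples.

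The response of Mcm3 to DDC differed between the sorts by 2.60 on the log2 scale, higher in all 4 M+133+ DDC samples than in all untreated ones and lower in all 4 M-133- DDC samples than in both untreated ones. Its limma adjusted p over all genes was 0.0874, which did not pass the threshold.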

How the results depend on the processing

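Every number of members called stayed small, and several changed with the processing. For DDC in M+133+ cells (2 called) the number was 1 with the normexp correction, without the probe filter, with the replicate block by description number or with only the later repeat arrays, and 0 without the intensity trend, with only the groups compared, with slide as a fixed block or with only the earlier repeat arrays. Leaving out 1 sample gave 0 to 3. For DDC in M-133- cells (0 called) it was 1 with averaged probes or only the later repeat arrays, and 0 to 1 on leaving out 1 sample; the members' median there was 0.73 with normexp, against 1.05.

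Between the untreated sorts (2 called) it was 1 with normexp, without the filter, with slide as a random block or with only the earlier repeat arrays, 0 with quantile normalization, without the trend, with slide as a fixed block or with either replicate block, and 4 with only the later repeat arrays; leaving out 1 sample gave 0 to 2. Between the sorts after DDC (4 called) it was 1 with only the groups compared, 0 with slide as a fixed block or the replicate block by title number, and 1 to 6 on leaving out 1 sample. For the interaction (0 called) it was 1 with averaged probes, and 0 to 1 on leaving out 1 sample. Where that left a group with 1 sample, it was assumed to vary like the other groups. The cause of these changes was not tested. Whether samples that share a number came from the same animals is not given, so no reading of a call lost under the replicate block is offered. With quantile normalization the median of all genes moved for DDC in M-133- cells from -0.36 to 0.07, and with normexp to -0.76. Signal near background limits Orc1, E2f8, E2f2, Cdc6, Pole and Pole2, each with a sample not above background.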
